A study of Mus musculus with 2 samples.

Results

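Ribosomal protein genes encode the proteins of the cytosolic ribosome. They were taken from the 32285 genes of the count matrices by their symbols, as those starting with Rpl or Rps and a digit, those starting with Rplp and a digit, and *Rpsa*, without the Rps6k kinases and without symbols holding -ps, which gave 86 genes. Of these, 31 encode proteins of the small subunit, 46 encode proteins of the large subunit, and the other 9 are paralogs, like-named genes or, for *Rps19bp1*, a gene for a binding protein (*Rpl22l1*, *Rpl36al*, *Rps27l*, *Rps27rt*, *Rpl7l1*, *Rps19bp1*, *Rpl3l*, *Rpl39l* and *Rpl10l*). They were measured in Cajal-Retzius (CR) cells, the *Reln*-expressing early neurons of the hippocampal molecular layer that are mostly lost after birth. At postnatal day 14, 3 males and 1 female of the genotype ΔNp73-Cre; Cic flox/+; tdT were pooled for the control library, and 2 male and 2 female littermates of the genotype ΔNp73-Cre; Cic flox/flox; tdT for the knockout library. Both groups therefore carry the Cre driver, the tdT reporter and at least 1 floxed allele of *Cic*, the gene of the transcriptional repressor Capicua, and the control is a conditional heterozygote, not a wild type. Cre from ΔNp73 acts in CR cell progenitors, so the reporter marks cells with that history. The hippocampi were dissociated with papain and DAPI− tdT+ cells were sorted for 10x 3′ single-cell RNA-sequencing. With 1 library of pooled mice per genotype, differences between genotypes cannot be told apart from differences between libraries, no test across cells was made, and all intervals given are exact 95% intervals that cover counting error only.

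The ribosome is built from ribosomal RNA and from ribosomal proteins that are needed in nearly equal numbers, and their mRNAs are among the most abundant and stable mRNAs of most cells. Nearly all of these mRNAs start with a tract of pyrimidines (C or T) at the 5′ end, the terminal oligopyrimidine (TOP) motif, through which their translation is controlled by the mTOR kinase and the RNA-binding protein LARP1. The mRNAs are spliced and exported, and lie mainly in the cytoplasm, whereas some long noncoding RNAs such as *Malat1* stay in the nucleus. The study left transcripts starting with Rpl, Rps or Mrp out of its clustering, so the values of these genes did not define its clusters.

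Cells were barcodes with at least 2000 unique molecular identifiers (UMIs, the counted transcript molecules) and at least 5 *Reln* UMIs, which gave 1003 control and 390 knockout cells of 1011 and 406 barcodes with 2000 UMIs or more, and no cell barcode was shared by the libraries. They were divided by the share of UMIs from 98 nuclear genes of oxidative phosphorylation (OXPHOS), counted outside mitochondrial, Rpl, Rps and Mrp genes. Cells at or above 1.8% are called OXPHOS-high (83 control and 34 knockout cells) and the others OXPHOS-low (920 and 356 cells), with 11 and 9 cells between 1.6% and 2%. Faint barcodes, with 20 to 100 UMIs, numbered 29040 and 75813 and are far below the depth of a cell. The median depth was 6064 and 6420 UMIs in OXPHOS-low cells, 13502 and 14230 in OXPHOS-high cells, and 89 and 44 in faint barcodes. Of 8 CR markers, 7 or 8 were detected in 25% or more of the cells of each of the 4 groups, and together they had between 8569 and 10924 CPM, the UMIs of a gene per 1000000 UMIs of the group. Of 12 marker lists for other cell types, none had more than 2 markers in as many cells, and the highest list was that of granule neurons, at 251 to 336 CPM. The CR markers include *Reln*, which the rule for cells required, so its part in their values was set by that rule. *Cic* itself had 53.8 CPM in control and 48.8 in knockout OXPHOS-low cells, a ratio of 0.91 (0.73 to 1.12). Since 3′ tags were counted and the deleted part of the gene is not given in the sources used here, this value does not check the labels.

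To show the pyrimidine tracts of these genes, the bases around annotated transcription starts were read from RefSeq windows on GRCm38.p6, which matched 66 of the 86 genes, with 78 windows. From 50 bases before to 50 bases after a start, on the coding strand, an unbroken run of at least 8 pyrimidines was found in 53 of the 66 genes (80.3%), against 39.3% of 27025 genes with a window. The median longest run was 10 bases against 7. The 5 letters CTTTC were found in 51.5% of the matched genes against 14.6% of all, and CTTCC, which can overlap it, in 45.5% against 22.2%. A match is a description of these letters and is not a mapped start. The genes printed are 11 of the 18 genes with a window that stood at an end of a comparison described further on, first *Rps21*, *Rps15* and *Rpl18*, then *Rpl35*, *Rps7*, *Rps25* and *Rpl26*, then *Rps4x*, *Rps28* and *Rps3*, and last *Rpl7l1*, which encodes no subunit protein. The longest run of pyrimidines within the bases searched is in capitals, and each line reads 5′ to 3′. The run of *Rpl26* begins at the edge of the bases searched, and the cc before its capitals continues it. Counted from the annotated start, with negative values before it, the runs of the first set begin at base 35, 26 and 2. Those of the second set begin at -7, 23, -22 and -50. Those of the third begin at 41, -21 and -47, and that of *Rpl7l1* at -32. Runs away from the annotated start are not shown to be TOP motifs.
Rps21: gcacgagctaCTTCCTTTCTgcgctc
Rps15: gcccgtaCTTCCTTTTCCgagtaacc
Rpl18: gcaggccgCTCTTTCCCCgcccactc
Rpl35: ccccgCCCTTTCCTCTTTCTCTCgaa
Rps7: tccccaCCTCTTTTCTTCCgccaccc
Rps25: accgggCTTCCTTTTTTTCCgacatc
Rpl26: ccaaccTCCTCTCCCCTTTCgctccg
Rps4x: cagcctccgaccctaaTTTCTTCgtt
Rps28: gtcccgaggaTTCCTgggtaccgcgt
Rps3: caaaacttcaTTTCCCatgcaaaact
Rpl7l1: cgaggcgggCCTCTCTaccccgcccg
The 3 genes of the first set lie at chr2:180257403-180257428 (+), chr10:80292449-80292474 (+) and chr7:45718064-45718089 (+), with the strand in parentheses. Those of the second set lie at chr2:39005118-39005143 (−), chr12:28635912-28635937 (−), chr9:44407686-44407711 (+) and chr11:68901510-68901535 (+), those of the third at chrX:102189342-102189367 (−), chr17:33824568-33824593 (−) and chr7:99483741-99483766 (−), and *Rpl7l1* at chr17:46782672-46782697 (−). The 18 genes had longest runs of 5 to 18 bases with a median of 10, and 13 of them had a run of at least 8. The first 2 sets printed had runs of 10 to 18 bases, although they stood at opposite ends of the comparison of OXPHOS-high with OXPHOS-low cells, while *Rps4x*, *Rps28*, *Rps3* and *Rpl7l1* had 7, 5, 6 and 7 bases. The 86 genes were spread over 19 chromosomes, with 14 on chromosome 7 and 4 on the X chromosome (*Rpl10*, *Rpl36a*, *Rpl39* and *Rps4x*). In the GENCODE annotation, 30 of them held 58 snoRNA genes on their own strand, which are processed from introns of ribosomal protein genes. Another gene overlapped 6 of them on the same strand and 23 on the other strand. Levels of the 6 genes overlapped on the same strand are uncertain, as are levels of genes with near-identical copies. The reason is that Cell Ranger, the counting program, does not count reads that match several genes. Whether the overlaps on the other strand affect levels was not tested.

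Ribosomal protein genes took a small share of the UMIs of most CR cells and a much larger one in the OXPHOS-high cells and in faint barcodes. In OXPHOS-low cells the 86 genes together held 1.19% (1.18 to 1.2) of all UMIs in the control library and 0.965% (0.952 to 0.977) in the knockout library. OXPHOS-high cells had 7.91% (7.86 to 7.96) and 7.06% (6.99 to 7.13). Faint barcodes had 11.9% (11.8 to 11.9) and 10.5% (10.5 to 10.6), more than either group of cells in the same library. The order of the 3 groups was therefore the same in both libraries, and in each of the 3 the knockout library had the lower share. For faint barcodes both statements depended on depth. Those of 20 to 50 UMIs, 721 in the control and 54440 in the knockout library, had shares of 7.76% (7.42 to 8.11) and 10.8% (10.76 to 10.84), so that the knockout share was the higher and the control share did not differ from that of OXPHOS-high cells beyond counting error. Those of 51 to 100 UMIs, 28319 and 21373, had 11.9% and 10.0%. Expressed per barcode, OXPHOS-low cells held 76.8 and 66.6 ribosomal protein UMIs in the control and the knockout library, OXPHOS-high cells 1002 and 994, and faint barcodes 10.2 and 4.78. The OXPHOS-high cells were 8.28% of the control and 8.72% of the knockout cells and held 54.1% and 58.8% of the ribosomal protein UMIs of all *Reln* cells.

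The shares of single cells overlapped little between the groups. In control OXPHOS-low cells the lowest share was 0.348%, the median 1.09% and the highest 6.48%, and in control OXPHOS-high cells these were 1.38%, 7.96% and 20.2%. In the knockout library they were 0.291%, 0.939% and 4.24% in OXPHOS-low cells and 0.956%, 6.97% and 23.8% in OXPHOS-high cells. Of the OXPHOS-high cells, 63 of 83 control and 27 of 34 knockout cells lay above the highest OXPHOS-low cell of their library, and none lay below the OXPHOS-low median. A share of 5% or more was reached by 72 OXPHOS-high and 5 OXPHOS-low cells of the control library and by 26 and 0 of the knockout library. A few OXPHOS-high cells had shares like those of OXPHOS-low cells, down to 1.38% and 0.956%.

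**Figure D1:**
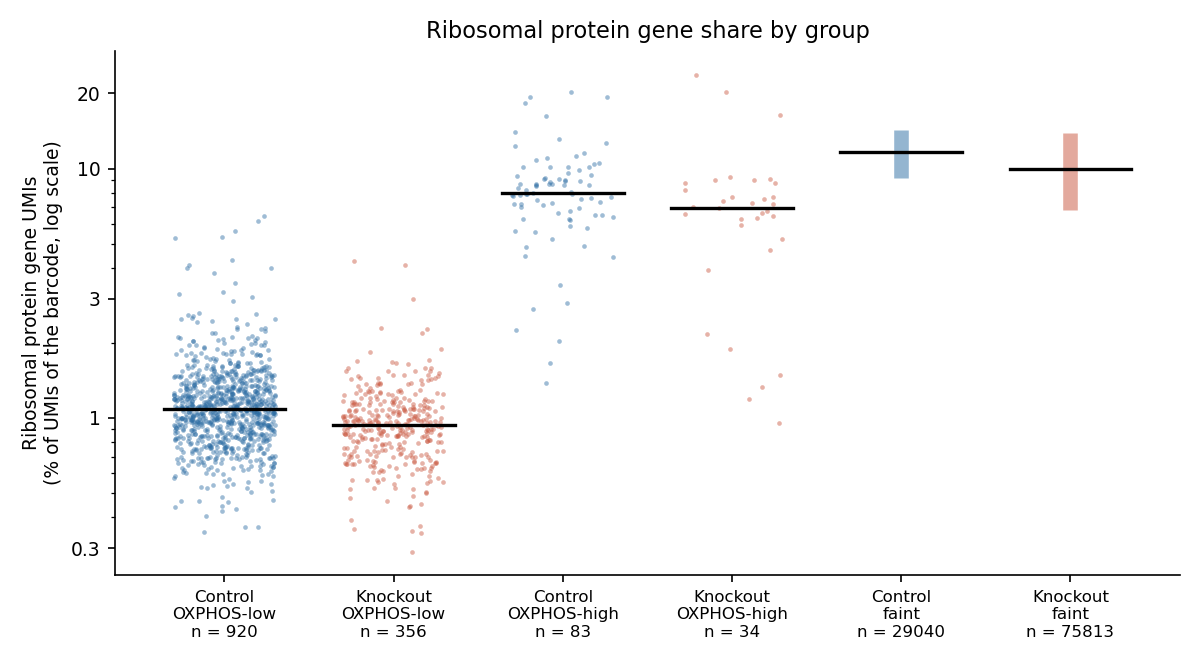
Share of UMIs from the 86 ribosomal protein genes (y axis, % of the UMIs of a barcode, log scale) in OXPHOS-low and OXPHOS-high *Reln* cells and in faint barcodes of 20 to 100 UMIs of each library. Points are single cells, black lines are medians and, for faint barcodes, bars span the middle 50% of barcodes. The medians are near 1% in OXPHOS-low cells, at 7.96% and 6.97% in OXPHOS-high cells and at 11.6% and 10.0% in faint barcodes.

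Within each group of cells the share of ribosomal protein genes went with the share of nuclear OXPHOS genes, whose UMIs enter the former only through the total. The groups were themselves divided by this OXPHOS share. Spearman's rho was 0.527 over the 920 control and 0.480 over the 356 knockout OXPHOS-low cells, and 0.756 over the 83 and 0.785 over the 34 OXPHOS-high cells. These are descriptions, since the cells of a library share its preparation and depth, and both shares come from the same UMIs. The share of 6 nuclear-retained RNAs (*Malat1*, *Meg3*, *Miat*, *Kcnq1ot1*, *Rian* and *Mirg*) ran the other way, with rho of -0.284 and -0.289 in OXPHOS-low and -0.705 and -0.655 in OXPHOS-high cells. As shares of all UMIs, these RNAs made up 7.13% and 7.07% of OXPHOS-low cells, 3.05% and 3.24% of OXPHOS-high cells, and 0.736% and 0.713% of faint barcodes. Across the 3 groups, the shares of nuclear-retained RNAs and of ribosomal protein genes thus stood in opposite order. Transcripts of the mitochondrial genome made up 3.17% and 3.88%, 1.89% and 2.29%, and 0.501% and 0.644% in the same order, and were lowest in faint barcodes. The part of nuclear RNA, mitochondrial RNA and depth in the shares of ribosomal protein genes was not tested.

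**Figure D2:**
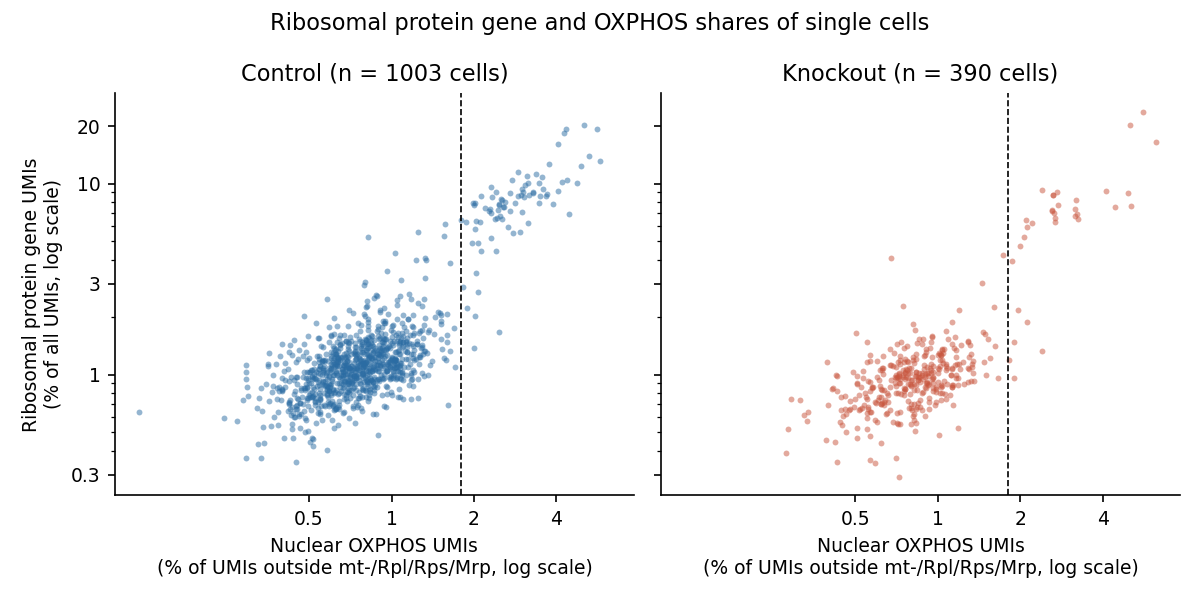
Share of ribosomal protein genes (y axis, % of all UMIs, log scale) against the share of nuclear OXPHOS genes (x axis, % of UMIs outside mitochondrial, Rpl, Rps and Mrp genes, log scale) in single *Reln* cells of the control (left, 1003 cells) and the knockout library (right, 390 cells). The dashed line marks the 1.8% that divides OXPHOS-low from OXPHOS-high cells. Most cells form a cloud near 1% of ribosomal protein UMIs, and most cells right of the line lie above 5% (72 of 83 and 26 of 34).

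The genes differed widely in their own levels. UMIs count 3′ ends, so the level of a gene, in CPM, was not divided by its length. In control OXPHOS-low cells the 77 subunit genes ranged from 30.4 (*Rpl23a*) to 963 CPM (*Rps21*), with a median of 123, and the 10 highest held 31.2% of the UMIs of these 77 genes. *Rps21*, a small-subunit protein, stood far above the next gene in OXPHOS-low cells of both libraries, at 963 and 996 CPM. The following genes in the control library were *Rps27a*, which encodes a ubiquitin fusion, at 377 (knockout 312), and *Rps29* at 374 (299.8), whose control levels differed by less than counting error. *Rpl27a* (313 and 252) and *Rpl41* (307 and 268), the gene of the smallest ribosomal protein, were also among the highest, as were *Rpl30* (271 and 223) and *Rps27* (263 and 194). The order of levels was nearly the same in both libraries, with Spearman's rho over the 77 genes of 0.976 for OXPHOS-low cells, 0.982 for OXPHOS-high cells and 0.990 for faint barcodes. Within a library the order in OXPHOS-low cells was less like that in OXPHOS-high cells, at 0.891 in the control and 0.812 in the knockout library, than the order in OXPHOS-high cells was like that in faint barcodes, at 0.972 and 0.973. Genes share their libraries and are not independent, so these values describe the lists only.

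*Rps21* was the first gene in OXPHOS-low cells and not in the other groups. Its levels in OXPHOS-high cells were 2004 and 1892 CPM, below those of *Rps29* at 2726 and 2313. In faint barcodes *Rps21* had 2741 and 2832 CPM and *Rps29* 4699 and 4275. Levels stood in the order faint barcodes, OXPHOS-high cells, OXPHOS-low cells for 75 of 77 subunit genes in the control library, all but *Rpl21* and *Rpl29*, and for 77 of 77 in the knockout library, but for 34 of 77 in the control and 77 of 77 in the knockout library when only faint barcodes of 20 to 50 UMIs were used. The annotated *Rps21* gene (chr2:180257377-180258445, + strand, GRCm38) overlapped no other gene and held no snoRNA.

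**Figure D3:**
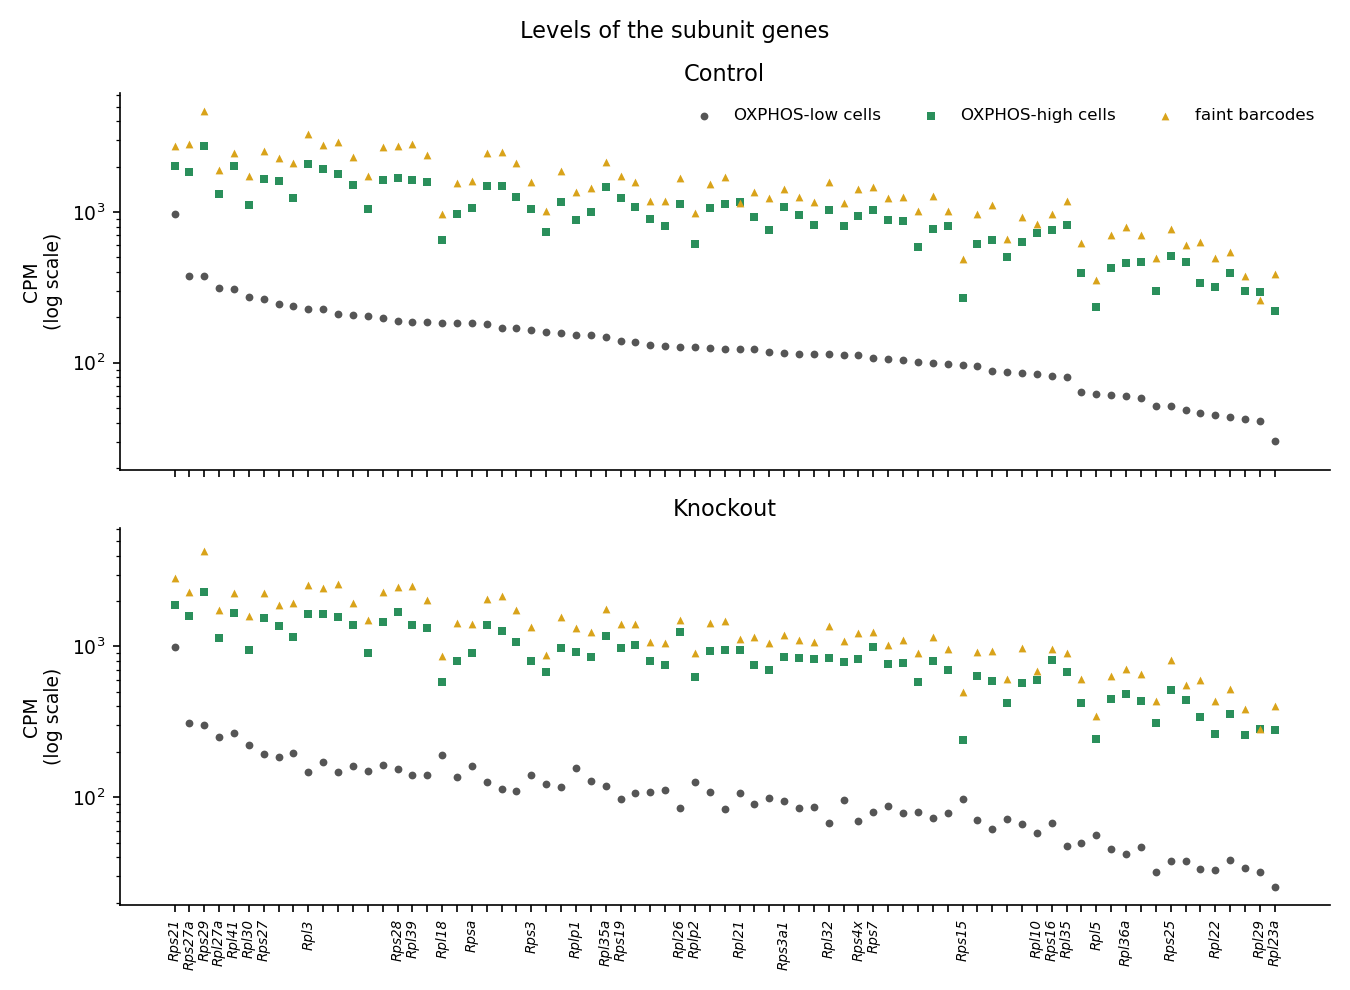
Levels of 75 of the 77 subunit genes (y axis, CPM on a log scale; x axis, genes ordered by their level in control OXPHOS-low cells, with those named in the text labelled) in the control (upper panel) and knockout library (lower panel). Circles are OXPHOS-low cells, squares OXPHOS-high cells and triangles faint barcodes. *Rps21* is the highest circle in both panels, at 963 and 996 CPM, and the gap between circles and squares is narrowest for *Rps21* (ratios of 2.08 and 1.90).

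All ribosomal protein genes with enough counts were higher in OXPHOS-high than in OXPHOS-low cells of the same library. Genes with at least 100 UMIs over the groups compared were given a ratio, which 81 of the 86 had in the control library, and all 81 were at least 1.5-fold higher, against 23.7% of the 8467 genes with a ratio. In the knockout library this held for 79 of 79, against 21.4% of 5340 genes. Some genes, such as *Rps25* with 93 OXPHOS-low and 245 OXPHOS-high UMIs in the knockout library, passed the limit only through OXPHOS-high cells, which favours a higher ratio. The 5 genes without a ratio in the control library were *Rps19bp1*, *Rps27rt*, *Rpl3l*, *Rpl39l* and *Rpl10l*, and the knockout library also lacked one for *Rpl7l1* and *Rps27l*. The median ratio of the ribosomal protein genes was 7.24 and 8.86, where that of all genes was 0.852 and 0.848. Summed over the 86 genes, the share in OXPHOS-high cells was 6.63 (6.57 to 6.70) times that in OXPHOS-low cells of the control and 7.32 (7.20 to 7.44) times that of the knockout library. Summed, large-subunit genes had somewhat higher ratios (6.98 and 7.91) than small-subunit genes (6.29 and 6.78). The median ratios of single genes ran the other way, at 7.23 and 8.84 for large-subunit and 7.74 and 9.08 for small-subunit genes. Marker lists of the 12 other cell types were not higher in OXPHOS-high cells as a set, since their median level was 37.5 CPM in control OXPHOS-low and 15.7 in OXPHOS-high cells, and 34.0 and 25.1 in the knockout library.

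The size of the ratio differed among the genes, from 2.08 to 10.2 in the control and from 1.90 to 14.7 in the knockout library. *Rpl35*, a large-subunit protein, had 80.4 CPM in control OXPHOS-low and 822 in OXPHOS-high cells, a ratio of 10.2 (9.13 to 11.5), and 47.2 and 674 in the knockout library, a ratio of 14.3 (11.5 to 17.8). *Rpl35a*, also of the large subunit, had ratios of 9.83 (9.04 to 10.7) and 9.88 (8.56 to 11.4). Among small-subunit genes, *Rps7* had ratios of 9.66 (8.75 to 10.7) and 12.4 (10.5 to 14.7). *Rpl26*, a large-subunit protein, had the highest ratio of the knockout library, 14.7 (12.6 to 17.3), and 8.82 (8.05 to 9.68) in the control. *Rps25*, of the small subunit, had 13.5 (10.6 to 17.4) and 9.91 (8.59 to 11.4), with intervals that met.

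At the other end, the same 3 subunit genes had the lowest ratios in both libraries. *Rps21* rested on 5710 control UMIs in OXPHOS-low and 2108 in OXPHOS-high cells and had ratios of 2.08 (1.98 to 2.19) and 1.90 (1.76 to 2.05). *Rps15*, a small-subunit protein, had 96.3 and 269 CPM in the control library, a ratio of 2.79 (2.41 to 3.23), and 2.45 (1.94 to 3.07) in the knockout library. *Rpl18*, of the large subunit, which *Sphk2* overlaps on the other strand, had 3.54 (3.21 to 3.9) and 3.02 (2.60 to 3.51). All 3 lay below 4.84 (control) and 5.08 (knockout), under which only 10% of the ribosomal protein ratios lie, yet above the median of all genes. The next lowest were *Rpl5*, at 3.80 and 4.28, which was singled out after its values were seen, and *Rpl30*, at 4.08 and 4.25. Over the 77 subunit genes the ratio was hardly related to the length of genomic DNA a gene spans (828 to 31449 bases, median 3289), with Spearman's rho of 0.13 and 0.09, nor was the level in OXPHOS-low cells, with rho of −0.03 and −0.06.

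In faint barcodes the ribosomal protein genes took a larger share than in OXPHOS-low cells. Summed, the share was 9.96 (9.88 to 10.0) times that of OXPHOS-low cells in the control and 10.9 (10.8 to 11.1) times in the knockout library, and 6.51 and 11.2 times in barcodes of 20 to 50 UMIs. All 83 genes with a ratio, which *Rpl3l*, *Rpl39l* and *Rpl10l* lacked, were at least 1.5-fold higher in each library, against 31.7% of 9212 and 36.2% of 8091 genes, and their median ratio was 10.7 and 12.3 against 0.821 and 0.955 for all genes. Ranked by the lower bound of the interval, the highest genes of the control library were *Rpl39*, at 15.0 (14.1 to 16), and *Rps28*, at 14.6 (13.7 to 15.6). Those of the knockout library were *Rps25*, at 21.7 (17.6 to 26.9), and *Rpl32*, at 20.2 (17.3 to 23.8). The lowest subunit genes were again *Rps21* (2.85 and 2.84), *Rps15* (5.04 and 5.17) and *Rpl18* (5.25 and 4.53). Both comparisons use the same OXPHOS-low cells, so the low ratios of these genes in both are not independent. Faint barcodes also differed in markers: CR markers summed to 4149.5 and 4657 CPM, against 10924 and 10749 in OXPHOS-low cells. The CR markers include *Reln*, which was required of cells and not of faint barcodes, so a part of this difference was set by the rule. The lists of other cell types ran in both directions. Ependymal and choroid markers summed to 61.0 and 171 CPM against 4.55 and 5.69, and granule markers to 71.4 and 74.3 against 336 and 310. The median of the 12 lists was 36.5 and 74.9 CPM in faint barcodes against 37.5 and 34.0 in OXPHOS-low cells. The part of other cells in the faint shares was not tested.

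Between genotypes, ribosomal protein genes were lower in the knockout library in OXPHOS-low and OXPHOS-high cells, and in faint barcodes the direction depended on their depth. The summed share in OXPHOS-low cells had a knockout over control ratio of 0.809 (0.797 to 0.821). Of 81 genes with a ratio, 60 were at least 1.2-fold lower and 0 were as much higher, against 15.7% lower and 16.1% higher of 9009 genes. The number lower ran from 27 to 62 over the alternatives. It was 31 with an OXPHOS threshold of 2.2%, where 14.2% of 9170 genes were lower, and 39 or 30 with an estimate of free RNA subtracted, as described further on. The median ratio was 0.788 against 0.994 for all genes, 76 of the 81 ratios were below 1, and 63 had an interval wholly below 1. Large-subunit genes had a summed ratio of 0.783 (0.767 to 0.799), with 37 of 46 at least 1.2-fold lower, and small-subunit genes 0.837 (0.819 to 0.855), with 23 of 31. In OXPHOS-high cells the summed ratio was 0.893 (0.882 to 0.904), with 16 of 80 genes lower and 1 higher by the same measure, against 19.3% lower and 17.1% higher of 3168 genes. The share of lower genes was thus near that of all genes, and their number ran from 2 to 35 over the alternatives, although their median ratio, 0.888, stood below that of all genes, 0.985. The number of 2 came from an OXPHOS threshold of 2.2%, where 19.5% of 2431 genes were lower. The number of 35 came from male cells, for which the share of all genes is not given. In faint barcodes the summed ratio was 0.886 (0.882 to 0.891), with 11 of 83 genes lower and 0 higher, against 13.0% and 18.9% of 7333 genes, so the share of lower genes was near that of all genes. The summed ratio in faint barcodes was 1.39 for those of 20 to 50 UMIs, with 1 gene lower, and 0.843 for those of 51 to 100 UMIs, with 37 lower. The share of all genes lower in these 2 ranges is not given, so these counts cannot be read as particular to ribosomal protein genes.

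The genes with the lowest knockout over control ratios in OXPHOS-low cells were ranked by their interval's upper bound. *Rpl32*, a large-subunit protein, had 114 CPM in the control and 67.1 in the knockout library, a ratio of 0.591 (0.496 to 0.702). *Rpl35* had 80.4 and 47.2 CPM, a ratio of 0.587 (0.475 to 0.720). *Rpl3*, whose protein reaches toward the peptidyl transferase centre of the large subunit, had 227 and 146, a ratio of 0.646 (0.573 to 0.726). *Rps4x*, the X-linked small-subunit gene, had 112 and 69.2, a ratio of 0.619 (0.520 to 0.734). The first 3 of these genes are overlapped by another gene on the other strand (*Cand2*, *Arpc5l* and *Wdr38*, and *Syngr1*), and *Rps4x* by none. In OXPHOS-high cells the ratios of the same 4 genes were 0.814 (0.724 to 0.914), 0.820 (0.719 to 0.933), 0.791 (0.728 to 0.858) and 0.874 (0.776 to 0.983), so all 4 were closer to 1 there.

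Only 5 genes were at or above 1 in OXPHOS-low cells, and they included the 3 subunit genes with the lowest OXPHOS-high over OXPHOS-low ratios. *Rpl18* had 185 and 192 CPM in control and knockout cells, a ratio of 1.04 (0.932 to 1.16). *Rps21* had a ratio of 1.03 (0.986 to 1.08) and *Rps15* one of 1.01 (0.864 to 1.18). The acidic stalk proteins *Rplp1* and *Rplp2*, which form the flexible arm of the large subunit where translation factors bind, had ratios of 1.02 (0.901 to 1.15) and 1.00 (0.875 to 1.14). All 5 intervals included 1. The OXPHOS-low knockout cells enter this ratio and the OXPHOS-high over OXPHOS-low ratio alike. In OXPHOS-high cells the highest gene was *Rpl23a*, at 1.26 (1.01 to 1.57), from 219.6 to 278 CPM, followed by *Rpl26* at 1.10 (0.997 to 1.22) and *Rps16* at 1.08 (0.955 to 1.22). Ranked by the upper bound of the interval, the lowest there were *Rps3* at 0.760 (0.675 to 0.854), *Rpl3* at 0.791 (0.728 to 0.858), *Rps19* at 0.785 (0.704 to 0.873) and *Rps3a1* at 0.797 (0.710 to 0.893). The paralog *Rpl36al*, from fewer UMIs (378 control and 126 knockout), had the lowest ratio itself, 0.732 (0.594 to 0.898). Its level is uncertain, since *Gm49383* overlaps it on the same strand.

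**Figure D4:**
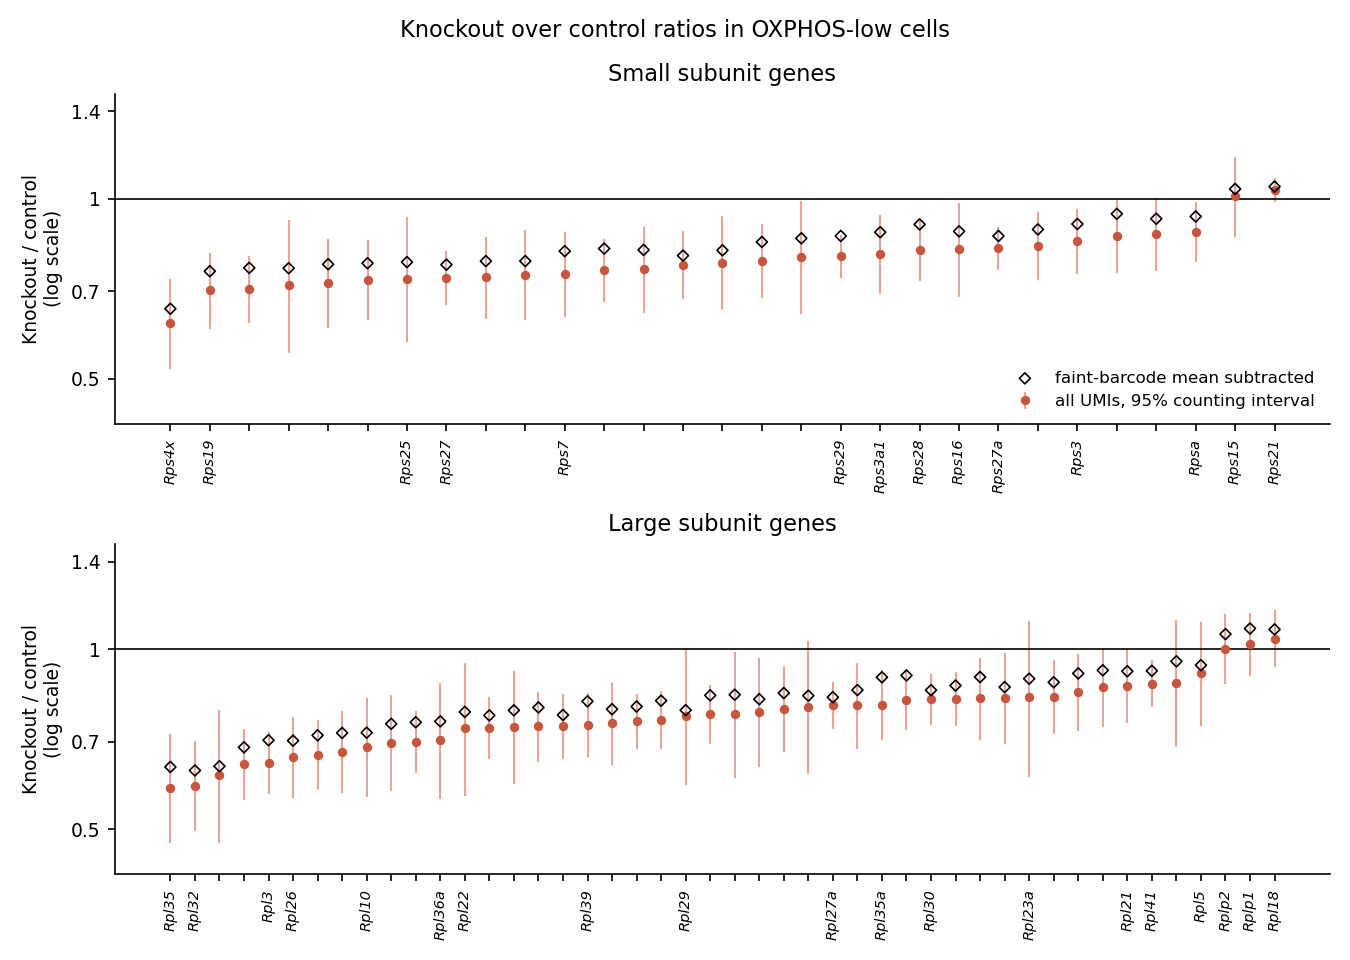
Knockout over control ratio of the level (y axis, log scale) of each small-subunit (upper panel) and large-subunit gene (lower panel) in OXPHOS-low cells, ordered by ratio, for 75 of the 77 genes, with those named in the text labelled. Filled points with bars are ratios with 95% intervals for counting error, and open diamonds are ratios after the mean UMIs of faint barcodes were subtracted from each cell. Nearly all points lie below 1, from *Rpl35* at 0.587 up to *Rpl18* at 1.04, and the diamonds of the genes below 1 lie closer to 1.

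Several other measures also differed between the libraries. The ribosomal protein UMIs of a mean faint barcode, taken as an estimate of free RNA, equalled 13.3% of those of a mean OXPHOS-low cell in the control and 7.18% in the knockout library. The faint range held 29040 control barcodes, with 49419 more above 100 and under 500 UMIs, against 75813 and 555 in the knockout library. It thus covers unlike parts of the low-depth barcodes of the libraries. With the mean of faint barcodes subtracted the summed ratio was 0.861, with 39 of 81 genes at least 1.2-fold lower (background 15.0%). With the mean of barcodes from 20 to under 500 UMIs, an estimate chosen after seeing the data that takes 16.1% and 7.25%, it was 0.885, with 30 of 81 (background 14.8%). Mitochondrial transcripts were 3.17% of the UMIs of OXPHOS-low control and 3.88% of knockout cells. The share was lower in the knockout library at each depth of OXPHOS-low cells, with 1.41% and 0.981% between 2000 and 4000 UMIs, 1.14% and 0.997% between 4000 and 8000, and 1.26% and 0.911% from 8000 UMIs. The marker lists ran in both directions between control and knockout OXPHOS-low cells. That of oligodendrocyte precursors summed to 67.0 and 143 CPM and that of pyramidal neurons to 97.5 and 127. Those of granule neurons, at 336 and 310, and of astrocytes, at 136 and 118, were lower in the knockout library. Of the 5 precursor markers, 3 had a UMI in control and 4 in knockout cells, and *Olig2* had none in either. The precursor sums can therefore not be read as a content of precursor cells. Beyond the subtraction, the part of these values in the genotype ratio was not tested.

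Because the libraries pooled males and females in different numbers, cells were also compared within a sex, read from *Xist* and 4 Y-linked genes. The summed ratio in OXPHOS-low cells was 0.792 in male and 0.839 in female cells, and in OXPHOS-high cells 0.862 and 0.837, so the knockout value was lower in all 4. The OXPHOS-high ratios rest on few cells, 54 control and 22 knockout cells in males and 15 and 9 in females. In OXPHOS-low cells these numbers were 648 and 172 in males and 212 and 167 in females. Among the lowest genes in OXPHOS-low cells, *Rpl32* had ratios of 0.615 in male and 0.514 in female cells, *Rpl35* 0.657 and 0.542, *Rpl3* 0.603 and 0.750, and X-linked *Rps4x* 0.641 and 0.616. *Rps21* had 0.983 and 1.07 and *Rpl18* 0.924 and 1.11, on both sides of 1, as were the ratios of *Rps15*, 1.19 in male and 0.787 in female cells.

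The balance of the summed UMIs of the subunits differed among the groups too. The UMIs of the 46 large-subunit genes were 1.17 times those of the 31 small-subunit genes in control OXPHOS-low cells and 1.09 times in knockout OXPHOS-low cells. They were 1.30 and 1.28 times in OXPHOS-high cells and 1.31 and 1.29 times in faint barcodes. *Rps21* alone made up 8.08% of the UMIs of the 86 genes in control OXPHOS-low cells and 10.3% of those of knockout cells. It is counted in the small subunit and had the lowest OXPHOS-high over OXPHOS-low ratios of the subunit genes. The median of these ratios was not higher for large-subunit genes (7.23 and 8.84) than for small-subunit genes (7.74 and 9.08). The balance without *Rps21* was not computed, so its differences cannot be read as those of the subunits as sets.

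Of the 9 genes that encode no listed subunit protein, 4 had at least 100 UMIs in control OXPHOS-low cells. *Rpl22l1*, a paralog that can take the place of *Rpl22*, had 882 and 310 UMIs in OXPHOS-low cells, against 265 and 81 of *Rpl22*. The paralog thus had 3.33 (2.90 to 3.83) and 3.83 (2.99 to 4.95) times the UMIs of *Rpl22* in OXPHOS-low cells and 2.58 (2.27 to 2.93) and 2.82 (2.29 to 3.48) times in OXPHOS-high cells. *Rpl36al*, a near copy of X-linked *Rpl36a*, had 1.08 (0.931 to 1.25) and 1.37 (1.05 to 1.78) times the UMIs of *Rpl36a* in OXPHOS-low cells and 0.779 (0.680 to 0.893) and 0.543 (0.434 to 0.678) times in OXPHOS-high cells, so *Rpl36al* was the lower of the pair in OXPHOS-high cells of both libraries and the higher in knockout OXPHOS-low cells, and in control OXPHOS-low cells the pair did not differ beyond counting error. *Gm49383* overlaps *Rpl36al* on the same strand, so the level of *Rpl36al* is uncertain. *Rps27l*, which is known as a p53 target, stood at 0.0642 and 0.0777 times *Rps27* in OXPHOS-low cells. *Rpl7l1*, a gene of ribosome assembly, had 24.5 and 22.4 CPM and was only 2.29 (1.67 to 3.13) times as high in control OXPHOS-high cells, the second lowest ratio after *Rps21*.

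The remaining 5 of these genes were rare. *Rps19bp1* had 33 and *Rps27rt*, a near copy of *Rps27*, 29 UMIs in control OXPHOS-low cells. *Rpl3l*, a paralog of muscle, had 2 UMIs there. *Rpl39l*, a paralog of the testis, had 1 UMI in all *Reln* cells of both libraries. *Rpl10l*, also a paralog of the testis, had 0 of 9918617 UMIs, which allows up to 0.302 CPM, and the pooled CR cells therefore gave no detectable UMI of it at this depth.

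Other genes tied to the ribosome were measured from listed groups. *Fau* and *Rack1* encode further proteins of the ribosome under other names. *Fau*, whose protein is made as a ubiquitin-like fusion, had 222 and 161 CPM in control and knockout OXPHOS-low cells, a ratio of 0.728 (0.649 to 0.815). *Rack1*, a scaffold on the small subunit, had 58.7 and 52.5, a ratio of 0.894 (0.725 to 1.10). The 24 other TOP mRNAs, for translation factors and related proteins, had a ratio of 0.865 (0.838 to 0.892) between genotypes in OXPHOS-low cells. Of the 24, 10 were lower and 1 higher by at least 1.2-fold, against 15.7% and 16.1% of 9009 genes. These TOP mRNAs had OXPHOS-high over OXPHOS-low ratios of 4.81 and 5.08, and faint over OXPHOS-low ratios of 7.36 and 7.21. In OXPHOS-high cells 24 of 24 and 23 of 23 were at least 1.5-fold higher, against 23.7% of 8467 and 21.4% of 5340 genes. *Eef1a1*, the elongation factor that delivers tRNA, had 498 and 372 CPM in control and knockout OXPHOS-low cells, a ratio of 0.748 (0.693 to 0.805). *Tmsb4x*, an actin-binding peptide, had 217 and 132, a ratio of 0.609 (0.537 to 0.688). *Snhg8*, a snoRNA host transcript, ran the other way with 53.3 and 72.0, a ratio of 1.35 (1.12 to 1.63). *Pabpc1*, the poly(A)-binding protein, had the smallest OXPHOS-high over OXPHOS-low ratios of the list, 1.59 (1.34 to 1.88) and 1.56 (1.22 to 1.98).

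Lists of genes that make ribosomes or control their use had summed ratios closer to 1 than the ribosomal protein genes. Genes of ribosome biogenesis had a genotype ratio of 1.02 (0.964 to 1.08) in OXPHOS-low cells. Of 16 biogenesis genes, 3 were higher and 2 lower by 1.2-fold, against 16.1% and 15.7% of 9009 genes. The OXPHOS-high over OXPHOS-low ratios of this list were 1.76 (1.66 to 1.88) and 1.67 (1.52 to 1.84). By 1.5-fold, 4 of 15 were higher and 4 lower in the control and 5 and 2 of 11 in the knockout library. Of all genes, 23.7% were as much higher and 31.4% lower in the control, and 21.4% and 28.9% in the knockout library. Within this list *Nop10*, a protein of box H/ACA snoRNPs, had OXPHOS-high over OXPHOS-low ratios of 4.96 (3.89 to 6.31) and 4.38 (3.09 to 6.20). *Polr1a* and *Polr1d* both encode subunits of RNA polymerase I, and stood at opposite ends: *Polr1a* had ratios of 0.516 (0.282 to 0.876) and 0.324 (0.116 to 0.732), and *Polr1d* 4.10 (3.38 to 4.96) and 6.22 (4.49 to 8.64). Between genotypes in OXPHOS-low cells, *Polr1a* had 27.7 and 38.6 CPM and *Polr1d* 43.8 and 28.9, again in opposite directions. Genes of mTOR signalling and translation control had a genotype ratio of 0.957 (0.923 to 0.992) and were lower as a list in OXPHOS-high cells, at 0.701 (0.661 to 0.742) and 0.774 (0.711 to 0.842) times OXPHOS-low cells. There, *Rheb*, the GTPase that activates mTOR, had ratios of 2.95 (2.50 to 3.47) and 2.02 (1.5 to 2.69).

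Proteins of the mitochondrial ribosome are encoded in the nucleus and translated in the cytosol. The 78 genes of this list made up 0.158% and 0.164% of UMIs in OXPHOS-low cells, a genotype ratio of 1.04 (1.00 to 1.08). Of 60 genes with a ratio, 13 were higher and 7 lower by 1.2-fold, against 16.1% and 15.7% of 9009 genes. This list was thus not lower in the knockout library as the cytosolic ribosomal protein genes were. The genotype ratio of the nuclear OXPHOS genes was 1.05 (1.03 to 1.07), with 13 of 84 higher and 9 lower, beside the same shares of all genes. These genes entered the rule that divided the cells, which set the same upper limit on their share in OXPHOS-low cells of both libraries. Their genotype ratio can therefore not serve as a contrast to the cytosolic ribosomal protein genes. Their ratio between OXPHOS-high and OXPHOS-low cells is not a result either. The mitochondrial ribosome did not enter the rule. It had OXPHOS-high over OXPHOS-low ratios of 2.82 (2.72 to 2.92) and 2.62 (2.48 to 2.76). Its faint over OXPHOS-low ratios were 4.22 (4.11 to 4.33) and 3.82 (3.70 to 3.96). Each was smaller than that of the cytosolic ribosomal protein genes in the same comparison.

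**Figure D5:**
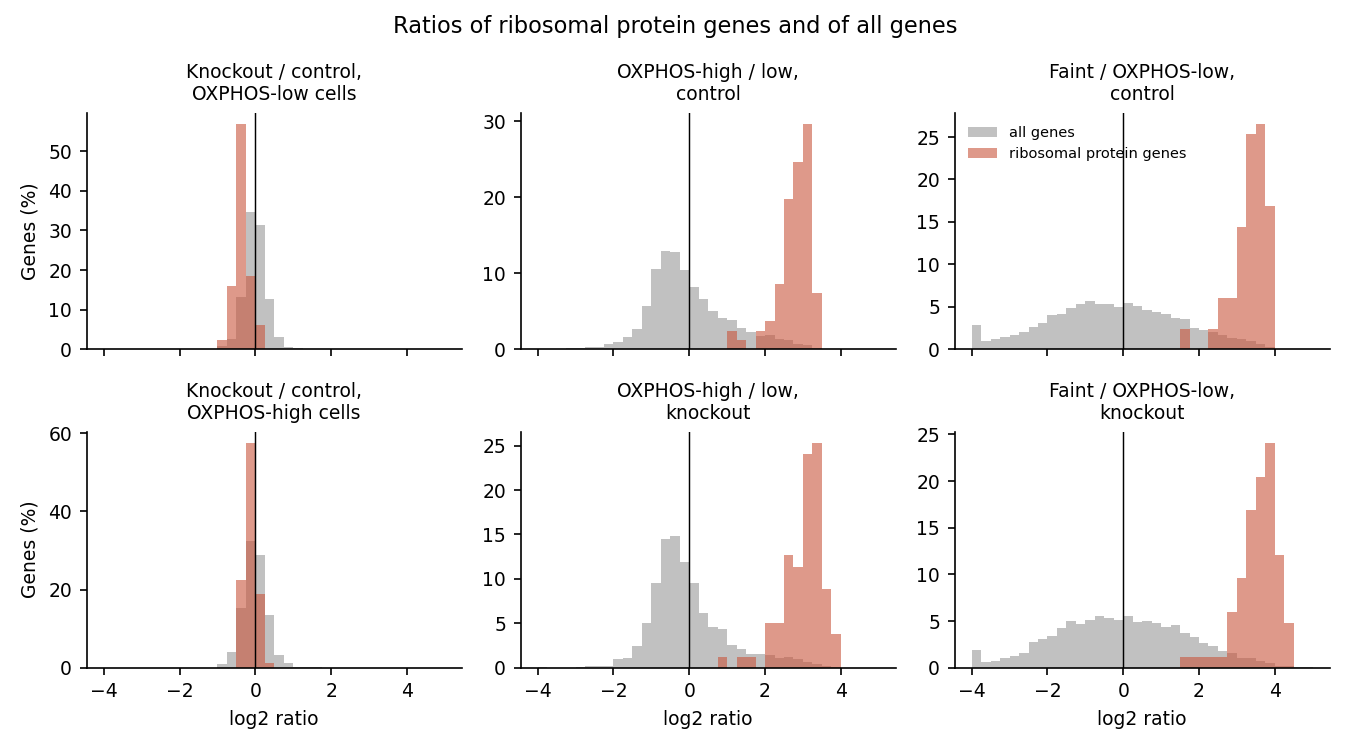
Distribution of log2 ratios (x axis) of ribosomal protein genes (red) and of all genes (grey) with at least 100 UMIs, as a share of the genes in each set (y axis, %), for both genotype comparisons (left), OXPHOS-high over OXPHOS-low cells (middle) and faint barcodes over OXPHOS-low cells (right). The bins at either end hold the values beyond them. The red bars lie mostly left of 0 in the left panels and right of it in the others, where the log2 median ratios are 2.86 to 3.63.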

How the data were processed

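The authors deposited 1 matrix per library, with whole-number UMI counts of every gene in every barcode, not normalized and with no cells called. Per the labels' processing notes they used Cell Ranger 8.0.1 and mm39, while the matrix headers name version 4 and the methods name mm10 and another version. As 32235 of the 32285 gene IDs are in GENCODE M21, positions were taken from that annotation on GRCm38. Whether intronic reads were counted is not given in the sources used here. The control matrix held 16336796 UMIs in 455605 barcodes and the knockout matrix 6777071 in 252107.

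Shares are sums of UMIs over barcodes, with exact Clopper-Pearson intervals, and ratios of levels carry exact conditional binomial intervals (Python 3.11.15, numpy 2.4.6, scipy 1.17.1, pandas 2.3.3, matplotlib 3.10.9). UMIs within a cell are not independent, so intervals cover counting error only. Ratios were made for genes with at least 100 UMIs over both groups, and folds of 1.2 (genotypes) and 1.5 (within a library) were used for counts of genes. Named were the 8 highest subunit genes in control OXPHOS-low cells and, per comparison, the 4 highest and 4 lowest ribosomal protein genes (2 in other lists) by whichever bound of the interval lies closer to 1. The members, lists, groups and rules were chosen with earlier results of these data known. No test was made, since each genotype is 1 library. Doublets were not called, and cells without the brightest stand in as an alternative. The mean of faint barcodes served as an estimate of free RNA. Symbols with -ps were left out, some genes of the lists are not reported here, and 20 genes without a RefSeq window have no sequence. The computation of the intervals was checked on simulated Poisson counts for the genotype comparison of OXPHOS-low cells, in 20 draws with 200 changed genes. Over all draws they held the true ratio for 94.3% of 513 genes at 0.5-fold, 94.5% of 507 at 2-fold and 95.7% of 178415 unchanged genes. Poisson counts are what the intervals assume, so this check says nothing about the spread between cells, mice or libraries. Alternatives covered the limits on UMIs, *Reln* and OXPHOS share, the faint range, the denominator, centring, averaging, subtraction of free RNA, the brightest cells, mitochondrial limits and sex.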

Additional observations from a re-analysis of the deposited data

Results flagged for a closer look

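Symbols that hold -ps name near copies of ribosomal protein genes and lie outside the 86 genes described. Of those listed in the matrices, 3 had more UMIs in *Reln* cells than the 3 that a count of 0 allows. *Rpl9-ps6* had 63 UMIs over both libraries, *Rpl10-ps3* had 66 and *Rpl36a-ps1* had 5. Their parent genes are among the 86, and reads that match both a parent and its copy are counted for neither.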

How the results depend on the processing

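No paired analysis was possible because each genotype has 1 library, and for the same reason no replicate could be left out. The knockout library had fewer cells, and its 34 OXPHOS-high cells are the smallest group. Over 14 summary results, 143 of 216 alternative values stayed within the counting interval of the reported ratio or within 1.5-fold of the reported count, 72 moved further and 1 turned. Among the 143 are values that a setting could not change, such as those between groups of cells when only the faint range changed. The 143 are therefore not a measure of how stable the results are. Of the 7 summed ratios, the knockout over control ratio in faint barcodes, whose alternatives were added after seeing the data, crossed 1: it was 1.39 for barcodes of 20 to 50 UMIs (1 gene lower by 1.2-fold), 0.843 for 51 to 100 (37 genes), 0.937 for 20 to under 500 (2 genes) and 0.898 with the mean of single barcodes, and 17 genes were lower with ratios centred on the median gene. The share of all genes lower is not given for these alternatives, so their counts of genes cannot be read as particular to ribosomal protein genes. The other 6 summed ratios stayed on their side of 1. The knockout over control ratio stayed between 0.792 and 0.885 in OXPHOS-low and between 0.837 and 0.967 in OXPHOS-high cells. The cause of the shifts was not tested, except where an alternative keeps fewer genes or cells.

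With an OXPHOS threshold of 1.5%, the OXPHOS-low genotype ratio was 0.825, the OXPHOS-high over OXPHOS-low ratios were 6.43 (control) and 7.02 (knockout), and the faint over OXPHOS-low ratios 10.3 and 11.1. With 2.2%, the genotype ratios were 0.869 (OXPHOS-low) and 0.967 (OXPHOS-high). There 31 and 2 genes were lower by 1.2-fold, against 14.2% of 9170 and 19.5% of 2431 genes. The OXPHOS-high over OXPHOS-low ratios were 6.20 and 6.90 and the faint ratios 8.82 and 9.0. *Rpl23a* turned to 1.07 between genotypes in OXPHOS-low cells. With the mean of faint barcodes subtracted, the OXPHOS-low genotype ratio was 0.861 with 39 genes lower, and the other ratios were 7.52, 7.82, 11.3 and 11.7 in the same order. With the mean of barcodes from 20 to under 500 UMIs subtracted, chosen after seeing the data, these were 0.885, 30, 7.74, 7.82, 11.7 and 11.7. Without the brightest cells, the genotype ratios were 0.829 (OXPHOS-low) and 0.866 (OXPHOS-high, 29 genes lower), the OXPHOS-high over OXPHOS-low ratios 7.36 and 7.68, and the control faint ratio 10.2. In male cells, the genotype ratios were 0.792 and 0.862 (35 genes lower in OXPHOS-high cells), the OXPHOS-high over OXPHOS-low ratios 6.26 and 6.81, and the knockout faint ratio 11.1. In female cells they were 0.839 and 0.837 (34 genes), 7.15 and 7.13, with faint ratios of 10.1 and 10.7. The OXPHOS-high cells numbered 69 control and 26 knockout cells without the brightest, 54 and 22 in males, and 15 and 9 in females. The share of all genes lower is not given for these settings. The counts of 29, 35 and 34 genes can therefore not be read as particular to ribosomal protein genes.

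With the mean of the shares of single cells, the genotype ratios were 0.831 and 0.873 and the OXPHOS-high over OXPHOS-low ratios 7.09 and 7.45. With mitochondrial and nuclear-retained transcripts left out of the total, the OXPHOS-high over OXPHOS-low ratios were 6.26 and 6.90 and the faint ratios 9.04 and 9.84. A minimum of 1000 UMIs per cell gave 0.904 for the genotype ratio in OXPHOS-high cells and 6.47 for the control OXPHOS-high over OXPHOS-low ratio, and a minimum of 10 *Reln* UMIs gave 6.54 for the latter. A minimum of 5000 UMIs gave 6.71 for it and faint ratios of 10.2 and 11.1. Faint barcodes of 20 to 50 UMIs gave faint ratios of 6.51 and 11.2, those of 51 to 100 gave 10.4 in the knockout, and those from 20 to under 500, chosen after seeing the data, 9.35 in the control library. In control barcodes of 20 to 50 UMIs, *Rps19bp1* and *Rps27rt* had 0 UMIs, which turned their faint ratios. With a minimum of 1000 UMIs per gene, 27 genes were lower between genotypes in OXPHOS-low cells (9.99% of all such genes). Between knockout OXPHOS-high and OXPHOS-low cells 17 were higher (13.3% of all such genes), as fewer genes had a ratio. With ratios centred on the median gene, 10 genes were lower between genotypes in OXPHOS-high cells, where the share of all genes lower is not given. Of the values of single genes, 2827 were close, 376 moved and 3 turned, the 3 named here.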

Other observations

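Barcodes outside the groups compared also held ribosomal protein UMIs. Above 100 and under 500 UMIs there were 49419 control barcodes with a share of 10.8% and 555 knockout barcodes with 7.11%. From 500 to under 2000 UMIs there were 191 and 51 barcodes with 4.76% and 4.41%, of whose UMIs 11.0% and 14.2% came from the mitochondrial genome. Barcodes of at least 2000 UMIs with under 5 *Reln* UMIs numbered 8 and 16 and had 7.69% and 6.27%.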
